A study of Ictidomys tridecemlineatus with 15 samples.

Results

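The 281 short genes described here are the transcription units of ground squirrel liver that carry 1 named gene and span less than 10000 nt. They were chosen by length and name alone from 6324 units counted by GRO-seq, of which 4705 hold a single gene and 4396 of those carry a gene symbol. A short unit was between 775 and 9997 nt long, with a median of 7342 nt, and 44 were under 5000 nt. A unit is the stretch of a chromosome that the study assigned to a gene after redrawing gene ends from its own reads, with the first 500 nt after the start site removed, so a gene that was extended past 10000 nt is not among them. The units just inside the limit were Tbc1d17 (9969 nt, 3.58 CPM per kb) and Pex10 (9997 nt, 3.23 CPM per kb), and the nearest one outside it was Rnf187 (10013 nt, 3.58 CPM per kb).

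GRO-seq labels RNA while engaged RNA polymerases are allowed to run on in isolated nuclei, so it reads where polymerase sits on genes rather than how much RNA has accumulated. Short genes are a recognisable set in any genome: immediate early genes, which respond to signals without new protein synthesis, ribosomal proteins, subunits of the respiratory chain and many stress response genes are compact. Polymerase crosses a short gene quickly, and a larger part of such a gene lies near its start and its end.

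Livers came from female 13-lined ground squirrels (Ictidomys tridecemlineatus) of a breeding colony, kept in the laboratory and carrying implanted temperature recorders. Summer active (SA) animals were taken while homeothermic before hibernation, and the winter animals were taken during interbout arousal (IBA), when they are warm between bouts of torpor, during entrance into torpor (Ent), in early torpor (ET) and in late torpor (LT). There were 3 libraries each for SA, IBA, Ent and ET and 2 for LT, replicates 1 and 3, each from a separate animal, and LT replicate 2 was not used here. No animal was treated with a drug or carried an engineered allele.

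Between 3713883 and 8884763 reads per library fell on the units, and the median short unit held between 95 and 252 reads in a library. Of the 281 short units, 274 had at least 10 reads in every library and 3 had 0 reads in some library. Hepatocyte markers were present in every library (7 of the 14 listed had a unit, none at 0), and their summed level ran from 8479 to 20100 CPM in SA and from 1783 to 2955 CPM in LT. Endothelial markers (Pecam1, S1pr1 and Kdr) summed to between 203 and 245 CPM in SA and between 90.4 and 106 CPM in LT, Cd14 was the single Kupffer cell marker with a unit, at 7.07 to 36.0 CPM over the 14 libraries, and no lymphocyte or erythroid marker had one. In tissue of this kind, fewer cells of a type and less nascent RNA per cell cannot be told apart. All 3 ET livers came from a collection season that held no other state, so state and season cannot be told apart in any comparison with ET, and the IBA and LT livers came from different seasons. SA replicate 2 stood apart from the other SA libraries on several liver genes given below.

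Across the 5 states, 96 of the 281 short units differed by edgeR's quasi-likelihood test (adjusted p of 0.001 or less). That was 34.2%, beside 25.5% of all 6324 units and 26.4% of single-gene units. The share called went down with length, from 31.0% of named single-gene units of 10000 to under 50000 nt to 17.9% at 50000 to under 200000 nt and 9.33% at 200000 nt or more. LT was most often the low state: of the 96 units, 48 had their lowest mean in LT, 23 in IBA, 13 in SA, 12 in ET and 0 in Ent. The highest mean fell in ET for 32, in SA for 24, in IBA for 17, in Ent for 14 and in LT for 9. Over all 281 short units the lowest mean was in LT for 124 (44.1%), where the other named single-gene units had 23.96%, and the highest was in Ent for 65 (23.1%), where the others had 8.43%. DESeq2 called 184 of 280 short units (65.7%), beside 50% of all units, and edgeR at an adjusted p at or under 0.05 called 211 (75.1%), beside 62%. Without LT replicate 1 there were 59 units in the edgeR test at 0.001 and without IBA replicate 3 there were 62.

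**Figure D1:**
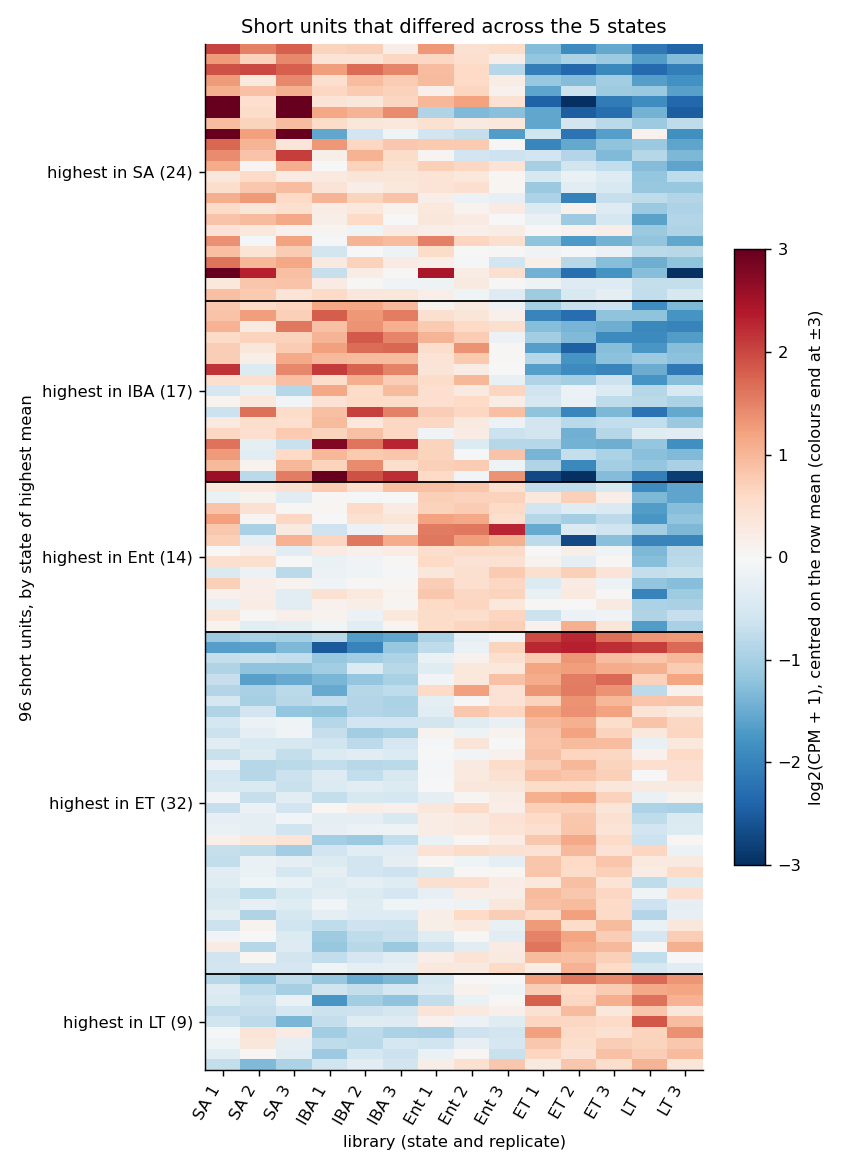
The 96 short units that differed across the 5 states, 1 row each, with the 14 libraries in columns and colour giving log2(CPM + 1) centred on the row's mean. Rows are grouped by the state of the highest mean: of the 32 rows highest in ET, 28 are below the row's mean in all SA libraries and 31 in all IBA libraries. Of the 24 rows highest in SA, 21 are below it in all ET and 23 in all LT libraries, as are all 17 rows highest in IBA in both states.

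Among the units counted, read density, in CPM per kb of unit length, was higher on short units than on long ones. Of the 6324 units, 6292 had at least 10 reads in every library. If units with few reads were left out beforehand, short ones of low density would be missing, and this was not tested. The median over short units was 4.56 CPM per kb in SA, 4.36 in IBA, 5.19 in Ent, 4.48 in ET and 3.38 in LT. Units of 10000 to under 50000 nt had medians from 2.16 in IBA to 2.59 in ET, and those of 200000 nt or more had medians from 0.845 in ET to 1.11 in IBA. Library by library, the short-unit median lay between 3.01 and 5.42 CPM per kb, and both LT libraries (3.01 and 3.75) were below all 12 others. Pck1 (122 CPM per kb, averaged over the states) and Igfbp1 (103) had the highest densities. They were followed by Trnap-ugg (40.7), a unit of 775 nt named for a proline transfer RNA gene. The start of that unit was not counted, so its density may not be that of the transfer RNA gene itself. Next came HP_like (38.2), Xbp1 (34.9), Ddit3 (34.2), G0s2 (32.9), Zfp36l1 (32.4), Id2 (31.6) and Thrsp (26.3).

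From IBA to LT and from Ent to ET the median change was lower in units of 2500 to under 7500 nt than in those of 7500 to under 10000 nt. The median log2 fold change between IBA and LT was −1.11 for the 43 units of 2500 to under 5000 nt, −0.70 for the 101 of 5000 to under 7500 nt and −0.13 for the 136 of 7500 to under 10000 nt, and it was 0.25 for the 403 named single-gene units of 10000 to under 15000 nt. From Ent to ET the same 4 groups had medians of −0.54, −0.37, −0.02 and 0.13. In longer units the medians were below 0 again, at −0.14 from IBA to LT and −0.04 from Ent to ET at 50000 to under 200000 nt and −0.31 and −0.20 at 200000 nt or more. The other pairs had no such order within the short units. From ET to LT the 4 medians were −0.35, −0.40, −0.30 and −0.15, reaching −0.02 at 20000 to under 50000 nt and 0.05 at 200000 nt or more. From IBA to Ent the short units stood above 0 (medians 0.25, 0.29 and 0.25). So did named single-gene units of 10000 to under 15000 nt (0.24) and of 15000 to under 20000 nt (0.18), so this was not particular to short units. Units of 50000 to under 200000 nt stood below 0 (−0.14). Length chose the units, so these medians are given without a test, and a short unit also held fewer reads (a median of 187 per library, beside 859 at 50000 to under 200000 nt).

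**Figure D2:**
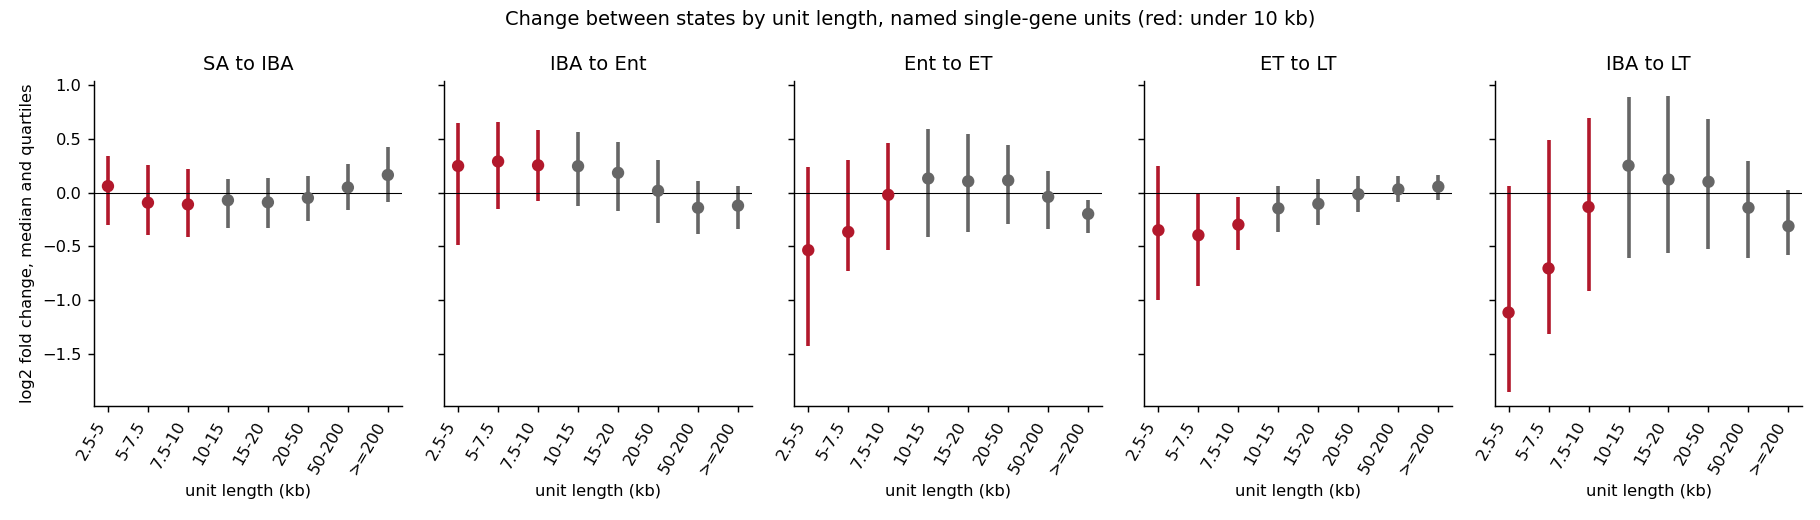
Fitted log2 fold change of named single-gene units against unit length in kb, 1 panel for each pair of states, with points for medians and lines from the lower to the upper quartile (groups under 10 kb in red; 1 unit under 2500 nt is left out). In the ET to LT and IBA to LT panels the red medians lie below 0, and in IBA to LT the median is −1.11 in the shortest group and 0.25 at 10 to 15 kb.

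The share of all counts on named single-gene units that fell on short ones was 2.38% ± 0.436 (SD, n = 3) in SA, 2.46% ± 0.195 (n = 3) in IBA, 2.63% ± 0.134 (n = 3) in Ent, 1.94% ± 0.113 (n = 3) in ET and 1.54% ± 0.116 (n = 2) in LT. The 5 ET and LT libraries, called cold here, averaged 1.78% and the 6 warm ones (SA and IBA) averaged 2.42%, a difference of −0.642 percentage points (two-sided exact permutation test, p = 0.0130, where 0.00433 is the smallest p that 5 against 6 libraries allow). Ent lay with the warm states, at 2.47 to 2.71%. Within the season that held both LT libraries the shares were 1.46 and 1.62% in LT, 2.70 and 2.71% in Ent and 2.75% in the 1 SA library. A few genes carried much of this: Pck1 held 7.28% and Igfbp1 5.69% of all short-unit counts, and the 10 units with the most counts held 27.0%. Without those 10 the difference was −0.0950 points (exact permutation p = 0.416), and with a limit of 20000 nt in place of 10000 it was −0.514 points (p = 0.338).

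**Figure D3:**
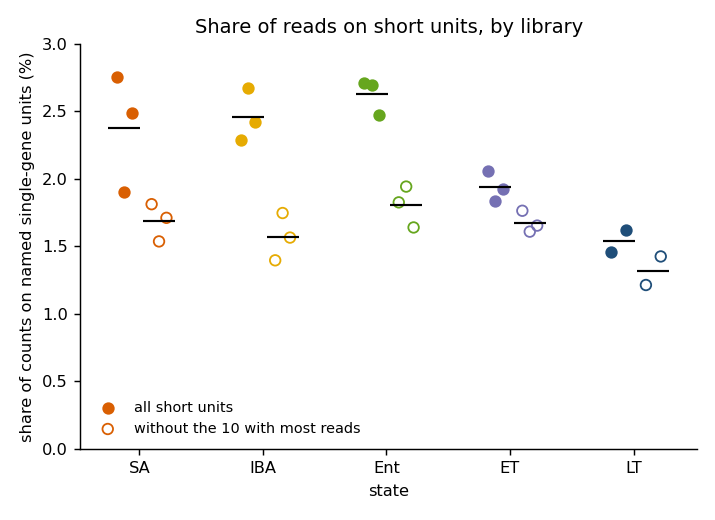
Share of the counts on named single-gene units that fell on short units, in percent, 1 point per library and bars for state means, for all 281 units (filled) and without the 10 with the most counts (open). The filled points lie at or under 2.06% in ET and LT and at 1.90 to 2.75% in SA, IBA and Ent, while the open points overlap between ET and the warm states.

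Each pair of states was then tested in the same fit, with an adjusted p at or under 0.05 taken as a change. Here a unit that rose or fell did so relative to the other units of the libraries, and total transcription was not measured. From SA to IBA, 4 short units rose (1.42%, beside 2.37% of all units) and 8 fell (2.85%, beside 2.85%). Those that rose were Myc, Colca2, Fancf and Rpl22l1, and those that fell were CYP1A1_like, CYP7A1, Ddit4, CYP8B1, Vps29, Nupr1, Slbp and Traf4. The median log2 fold change of the short units was −0.08 and that of single-gene units −0.01. These lists were short and library-dependent: leaving out 1 library at a time gave 2 to 7 rises and 2 to 9 falls, with 2 rises without any 1 IBA library or ET replicate 3, and 7 without SA replicate 1 or 2. The falls numbered 5 without SA replicate 3 or IBA replicate 2, 3 without IBA replicate 1 and 2 without IBA replicate 3.

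From IBA to Ent, 45 short units rose (16.01%, beside 8.76% of all units) and 12 fell (4.27%, beside 7.34%). The median log2 fold change was 0.26 in short units and −0.02 in single-gene units. Hmgb3, Zfand2a, MT1E_like, Slc25a5 and Nfam1 had the largest rises whose libraries did not overlap, and Serpina7, CDKN2B_containing, Kcnj8, Dusp6 and Bad the largest falls. Every one of the 12 falls and 44 of the 45 rises were free of overlap between the 3 IBA and the 3 Ent libraries. Called or not, 41.99% of all short units and 44.18% of the other named single-gene units were free of it. The numbers came down without any 1 IBA library (16 to 22 rises and 2 to 5 falls), without Ent replicate 2 (24 and 7) and without Ent replicate 3 (23 and 5), and 24 rises were left with collection season as a covariate.

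From Ent to ET, 42 short units rose (14.9%, beside 15.3% of all units) and 63 fell (22.4%, beside 13.4%). The medians were −0.19 in short and −0.02 in single-gene units. PPP3R1_like, Hmgb3, Nr1d1, Mterf2 and Slbp led the rises and CYP8B1, Egr1, Ddit4, Igfbp1 and G0s2 the falls. With library sizes taken from mapped reads the median of the short units was −0.07, and that of single-gene units was 0.0959. No 1 library moved either count by more than 1.5 times (29 to 44 rises and 49 to 73 falls).

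From ET to LT, no short unit rose (0, beside 0% of all units) and 13 fell (4.63%, beside 0.269%), in edgeR's test. They were Rps27a, Ndufa4, Rps26, Rpl7, Pnrc2, Ube2a, Rps23, Phf5a, Rpp38, Znf281, Nme2, Rpl31 and Rps27, and in each the 2 LT libraries lay below all 3 ET libraries. Called or not, ET and LT did not overlap in 44.48% of all short units and 22.94% of the other named single-gene units. Only 17 units of the whole table fell, 16 of them single-gene units, so that 13 of the 17 were short. At an unadjusted p at or under 0.05 there were 84 short units in either direction (29.9%, beside 8.7% of all units), and DESeq2 gave 42 falls (15% of 280, beside 1.52%). Of the 281 short units, 211 (75.1%) had a log2 fold change under 0, where the other named single-gene units had 50.8%, and the median was −0.33, beside −0.02 in single-gene units. A change of 2-fold or more was fitted for 18.5% of short units and 1.52% of those of 10000 to under 50000 nt. The calls rested on few libraries: 0 falls were left without LT replicate 1, 1 without ET replicate 2, 4 without ET replicate 3 and 8 without ET replicate 1, while the median ran from −0.47 to −0.26 over the libraries left out. Leaving out a library of another state also lowered the count, to 4 to 8 for SA replicate 1, SA replicate 3, each IBA library and Ent replicates 1 and 2.

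Between IBA and LT 56 short units rose (19.9%, beside 24.8% of all units) and 105 fell (37.4%, beside 25%). The median log2 fold change was −0.38 in short units and −0.09 in single-gene units. Hmgb3, Mterf2, PPP3R1_like, Ppp1r15a and Nr1d1 had the largest rises, and Egr1, Igfbp1, CYP7A1, Bad and Fgf21 the largest falls. All rises and falls called between these states were free of overlap between the 3 IBA and the 2 LT libraries. So were 74.7% of all short units and 73.95% of the other named single-gene units, called or not. Without LT replicate 1 the falls numbered 69, without LT replicate 3 the rises numbered 36, and with season as a covariate 31 rises were left. The rise of Nr1d1 was among those lost with season as a covariate. Pairs that follow each other share a state, so their fold changes are not independent of each other.

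**Figure D4:**
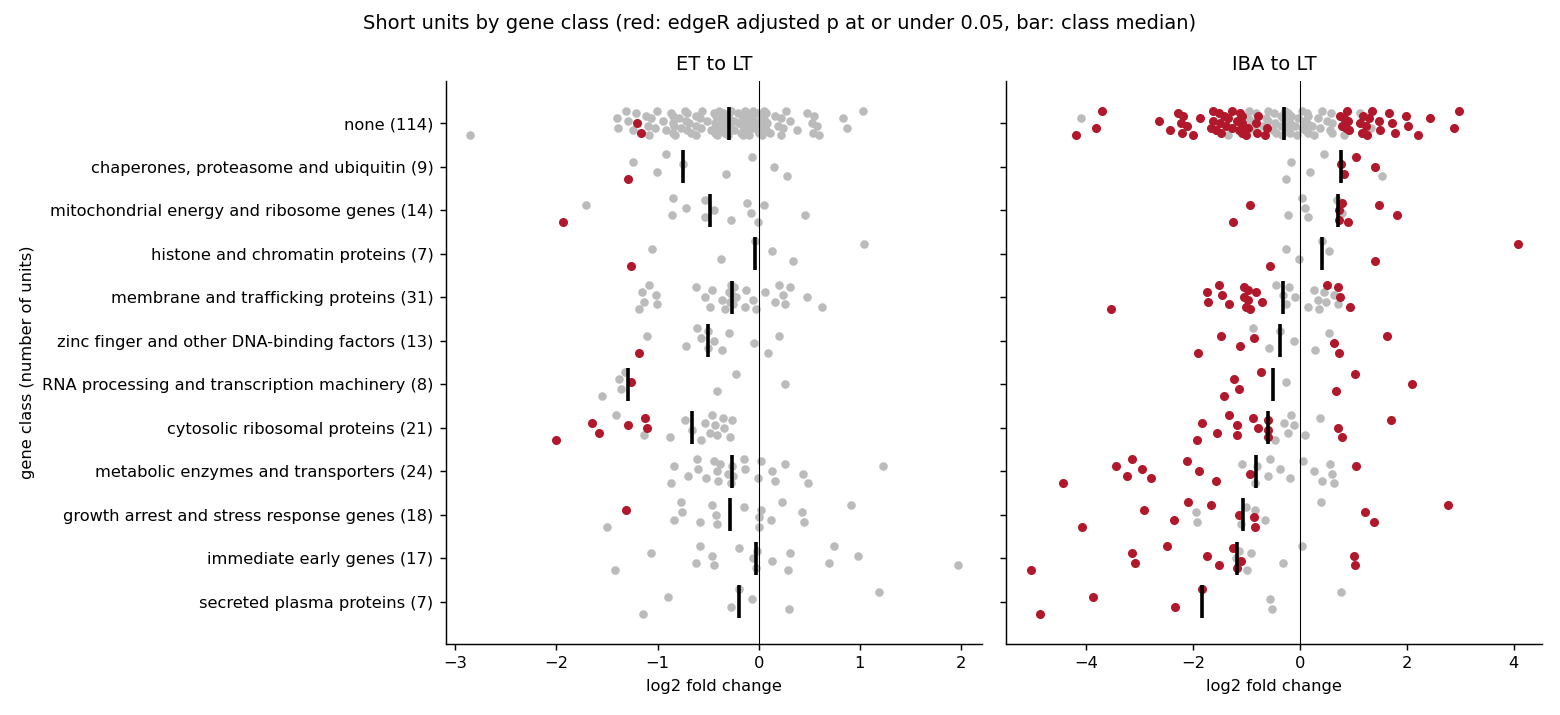
Fitted log2 fold change of each short unit from ET to LT (left) and IBA to LT (right), 1 row per gene class with its number of units, red where edgeR's adjusted p was at or under 0.05, and a bar at the class median. All 21 ribosomal protein units lie below 0 on the left, and on the right the immediate early, secreted and stress response classes have medians of −1.18, −1.83 and −1.06 while chaperone and mitochondrial classes have medians of 0.76 and 0.70.

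Of the 281 units, 167 fell in at least 1 of 11 gene classes and 114 in none. Class counts below can be set beside the shares of all units. Between SA and IBA 2.37% rose and 2.85% fell, and between IBA and Ent 8.76% and 7.34%. Between Ent and ET the shares were 15.3% and 13.4%, and between IBA and LT 24.8% and 25%. None rose and 0.269% fell between ET and LT. No class was tested against these shares, so a count near them is not particular to its class. Immediate early genes had 17 short units. The products of this class are transcription factors and signal regulators, of which many, but not all, are switched on within minutes. Cebpa and Dusp28, both among the falls from IBA to LT, are not classical immediate early genes. Of the 17, none rose and 1 fell from IBA to Ent, 1 rose and 10 fell from Ent to ET, none changed from ET to LT, and 2 rose and 9 fell from IBA to LT (median log2 fold change −1.18). Their summed level was 1528 to 1756 CPM in Ent and 652 to 822 CPM in ET. Dusp6, a phosphatase that switches off ERK (chromosome 4, 29921423 to 29929521, plus strand), read 107, 142 and 97.4 CPM in SA, 209, 148 and 172 in IBA, 82.5, 76.6 and 65.5 in Ent, 14.3, 11.4 and 25.2 in ET, and 24.9 and 16.8 in LT. The 3 groups from IBA through Ent to ET did not overlap, each lying below the one before, and ET and LT did. The log2 fold change was −1.23 ± 0.26, adjusted p = 0.00991 by edgeR from IBA to Ent and −2.14 ± 0.28, adjusted p = 0.000479 from Ent to ET. Zfp36l1 and Zfp36l2, which speed the decay of AU-rich messenger RNAs, followed a like course without the step at Ent. Zfp36l1 read 576, 289 and 649 CPM in SA, 329, 454 and 406 in IBA, 458, 358 and 277 in Ent, 108, 95.8 and 114 in ET, and 75.1 and 66.6 in LT. Every warm and Ent library was above every ET and LT library, and the Ent to ET change was −1.78 ± 0.27, adjusted p = 0.000932. Zfp36l2 fell by the same test from Ent to ET (−2.04 ± 0.27, adjusted p = 0.000479), while the next unit upstream on its strand, Thada, which ends 4774 nt away, had a log2 fold change of −0.21 (adjusted p = 0.442).

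Egr1, a zinc finger factor induced by growth signals, read 12.8, 51.7 and 67.6 CPM in SA, 64.5, 58.7 and 114 in IBA, 14.5, 81 and 36.9 in Ent, 4.42, 0.982 and 4.15 in ET, and 4.54 and 0.295 in LT. Its 9 warm and Ent libraries were above all 5 cold ones, with a wide spread in SA and Ent, and the IBA to LT change was −5.04 ± 1.07, adjusted p = 0.00196 in edgeR. Myc, a regulator of growth and ribosome synthesis, was low in summer and high in the warm winter animals, at 8.68, 24.5 and 4.87 CPM in SA, 52.9, 82.2 and 75 in IBA, 78.3, 50.8 and 60.3 in Ent, 12.8, 16.5 and 24.3 in ET, and 37.6 and 32.7 in LT. The SA and IBA libraries did not overlap (2.53 ± 0.46, adjusted p = 0.00847 by edgeR), nor did Ent and ET (−1.82 ± 0.44, adjusted p = 0.00923), and LT lay above ET without passing the test (0.98 ± 0.48, adjusted p = 0.607). Id2, an inhibitor of basic helix-loop-helix factors, fell from Ent to ET (−1.99 ± 0.44, adjusted p = 0.00561). Tgif1 rose from Ent to ET and from IBA to LT and Cebpd rose from IBA to LT, the exceptions in direction within the class.

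**Figure D5:**
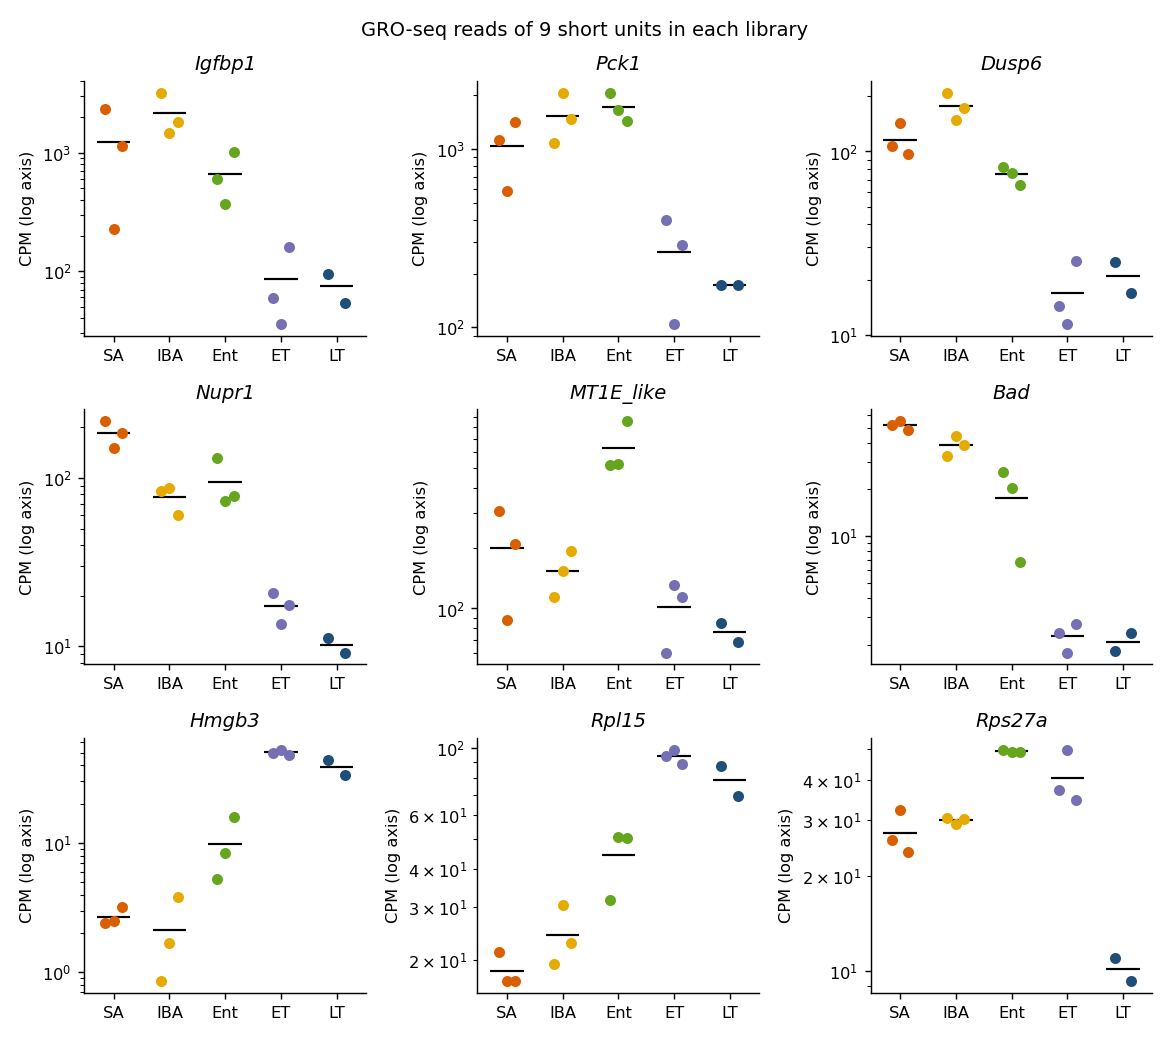
CPM on a log axis for 9 short units in each of the 14 libraries, 1 point per library and bars at state means. Igfbp1, Pck1, Dusp6, Nupr1 and Bad are lower in all ET and LT libraries than in IBA and Ent, MT1E_like is highest in the 3 Ent libraries, Hmgb3 and Rpl15 are higher in ET and LT than in SA and IBA, and Rps27a is lowest in the 2 LT libraries.

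Growth arrest and stress response genes numbered 18. From IBA to Ent 3 rose and 1 fell, from Ent to ET 1 rose and 6 fell, from ET to LT 1 fell, and from IBA to LT 3 rose and 8 fell (median −1.06). Nupr1, a small stress-induced nuclear protein, read 218, 151 and 186 CPM in SA, 83.5, 87.4 and 60.2 in IBA, 131, 72.9 and 77.8 in Ent, 20.8, 13.6 and 17.6 in ET, and 11.2 and 9.13 in LT. SA was above IBA in every library and Ent above ET in every library, and both steps passed the test (−1.26 ± 0.25, adjusted p = 0.011, lost without IBA replicate 3, and −2.44 ± 0.26, adjusted p = 0.000272). Ddit4, an inhibitor of mTOR signalling induced by stress and glucocorticoid, read 505, 175 and 63.6 CPM in SA, 20.5, 39.3 and 34.8 in IBA, 189.8, 39.8 and 47.3 in Ent, 11.8, 6.29 and 9.1 in ET, and 13.3 and 3.24 in LT. SA replicate 1 and Ent replicate 1 were far above the others of their states. The fall from Ent to ET (−3.34 ± 0.81, adjusted p = 0.00965 in edgeR) rested on groups that did not overlap, and that from SA to IBA (−2.96 ± 0.78, adjusted p = 0.0454) was lost without any 1 IBA library, without SA replicate 1, without any 1 ET library or with season as a covariate.

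A pair of genes of the integrated stress response went the other way. Ppp1r15a, which brings a phosphatase to a translation initiation factor, read 23.4, 20.1 and 27.7 CPM in SA, 8.81, 14.8 and 13.2 in IBA, 18.6, 27.8 and 32.8 in Ent, 112, 49.5 and 68.8 in ET, and 101 and 66.4 in LT. Its 5 cold libraries were above all 9 others, and it rose from IBA to Ent (1.09 ± 0.33, adjusted p = 0.0411 by edgeR) and from Ent to ET (1.55 ± 0.31, adjusted p = 0.00388). Ddit3, a transcription factor of the same response, read 165, 172 and 192 CPM in SA, 178, 179 and 193 in IBA, 365, 339.7 and 307 in Ent, 382, 539.9 and 345 in ET, and 497 and 351 in LT. The 6 SA and IBA libraries lay below the 8 others, and the step was from IBA to Ent (0.88 ± 0.17, adjusted p = 0.00769). Xbp1, a transcription factor of the unfolded protein response in none of the classes, fell from Ent to ET (−1.53 ± 0.34, adjusted p = 0.00606 in edgeR), with 368, 223 and 419 CPM in Ent against 88.3, 141 and 119.7 in ET.

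MT1E_like, a metallothionein unit on chromosome 16 (50700697 to 50710496, minus strand), had its maximum at entrance. It read 304, 87.7 and 210.2 CPM in SA, 114, 154 and 192 in IBA, 516, 525 and 859 in Ent, 60.1, 131 and 114 in ET, and 84.8 and 67.8 in LT. All 3 Ent libraries were above all 11 others, and the log2 fold change was 2.04 ± 0.41, adjusted p = 0.0079 by edgeR from IBA to Ent and −2.64 ± 0.42, adjusted p = 0.00113 from Ent to ET. Metallothioneins bind zinc and copper and occur as near-identical copies, and the study counted uniquely aligned reads, so reads that match several copies equally well would be missed. Fgf21, a hormone of the fasted liver, read 11.6, 12.9 and 23.3 CPM in SA, 65.4, 76.5 and 65 in IBA, 105, 7.11 and 6.37 in Ent, 2.36, 12 and 7.98 in ET, and 3.17 and 5.01 in LT. Ent replicate 1 was the highest of the 14 and the other Ent libraries lay with ET and LT, IBA and LT did not overlap, and the IBA to LT fall (−4.07 ± 1.16, adjusted p = 0.0116 by edgeR) was lost without either LT library. CDKN2B_containing, which spans a cell cycle inhibitor gene, read 31.5, 47.7 and 36.4 CPM in IBA against 11.9, 10.1 and 6.97 in Ent. The groups did not overlap (−1.99 ± 0.56, adjusted p = 0.0307 by edgeR), but the call was lost without any 1 of these 6 libraries. Pnrc2, a cofactor of messenger RNA decay and of nuclear receptors, was the fall from ET to LT in this class, with 49.2, 66.4 and 49.5 CPM in ET against 16.9 and 27.2 in LT. Its LT libraries were the lowest of the 14, and the call (−1.31 ± 0.24, adjusted p = 0.0458 by edgeR) was lost in 14 of the alternatives, with all libraries but SA replicate 2 and LT replicate 3 left out in turn among them.

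Cytosolic ribosomal proteins, the protein components of the ribosome, were the class with the most falls from ET to LT. Of 21 short units, 6 rose and none fell from IBA to Ent, 2 rose and 1 fell from Ent to ET, none rose and 6 fell from ET to LT, and 3 rose and 11 fell from IBA to LT. Each of the 21 had a log2 fold change under 0 from ET to LT (−1.995 to −0.26, median −0.66), and this held for all 21 under each of the 4 other scalings and models tried on these libraries. Their summed level was 437 to 597 CPM in SA, 602 to 652 in IBA, 812 to 880 in Ent, 818 to 924 in ET and 506 to 549 in LT. The 6 libraries of Ent and ET were above all 8 others.

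Rps27a, which encodes a ribosomal protein fused to ubiquitin (chromosome 12, 26935433 to 26940620, minus strand, 5188 nt), read 25.8, 32.2 and 23.8 CPM in SA, 30.4, 29.1 and 30.2 in IBA, 49.8, 49.1 and 48.9 in Ent, 37.3, 49.9 and 34.6 in ET, and 11 and 9.28 in LT. Both LT libraries were below all 12 others and the 3 Ent libraries were above every SA and IBA library. The log2 fold change was 0.72 ± 0.17, adjusted p = 0.0157 from IBA to Ent and −2.0 ± 0.21, adjusted p = 0.00257 from ET to LT (edgeR), the latter lost without LT replicate 1. Rps26 read 11.1, 16.2 and 12.1 CPM in SA, 19.3, 21.3 and 20.8 in IBA, 23.5, 28.1 and 21.4 in Ent, 30.6, 31 and 23.8 in ET, and 9.22 and 8.84 in LT. Its LT libraries were again the lowest of the 14, and the ET to LT change of −1.65 ± 0.23, adjusted p = 0.0208 was lost without ET replicate 2 or either LT library. The merged unit that ends 4150 nt upstream of Rps26 had a log2 fold change of 0.04 (adjusted p = 0.980) in that comparison. Rps23, Rps27, Rpl31 and Rpl7 fell by −1.29, −1.1, −1.12 and −1.58 on the log2 scale from ET to LT, and the call for Rpl7 was lost in 15 of the alternatives tried, including each library but LT replicate 3 left out. Rps23, Rps27 and Rps27a were also among the units that rose from IBA to Ent.

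A few ribosomal protein units kept a high level in LT. Rpl15 (chromosome 2, 182433965 to 182442540, plus strand) read 21.2, 17.1 and 17 CPM in SA, 19.3, 30.3 and 22.7 in IBA, 31.6, 50.9 and 50.7 in Ent, 94.1, 99 and 88.9 in ET, and 87.2 and 69.4 in LT. Its 5 cold libraries were above all 9 others, and it rose from IBA to Ent (0.88 ± 0.21, adjusted p = 0.0175) and from Ent to ET (1.08 ± 0.21, adjusted p = 0.00284) in edgeR's test. Rpl22 read 21.2, 25.6 and 20.4 CPM in SA, 25.6, 27.2 and 25.7 in IBA, 34.7, 32 and 37.2 in Ent, 63.3, 53.8 and 53.5 in ET, and 37.5 and 52.1 in LT. It rose from Ent to ET (0.71 ± 0.16, adjusted p = 0.00616) and was higher in LT than in IBA (0.78 ± 0.18, adjusted p = 0.00329), as was Rps29 (0.71 ± 0.24, adjusted p = 0.0261). Rpl22l1, a paralog of Rpl22, rose from SA to IBA (0.69 ± 0.17, adjusted p = 0.0366 by edgeR), with 15.4, 17.3 and 14.8 CPM in SA against 24.4, 25.5 and 26.5 in IBA, a call lost in 10 of the alternatives, among them SA replicates 1 and 3, each IBA library, Ent replicates 1 and 2 and ET replicate 3 left out. Ribosomal protein genes have many processed copies in mammalian genomes, and the study counted uniquely aligned reads, so reads that match a copy equally well would be missed.

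Mitochondrial energy and ribosome genes numbered 14. From IBA to Ent 4 rose and none fell, from Ent to ET 4 rose and 1 fell, from ET to LT 1 fell, and from IBA to LT 6 rose and 2 fell (median 0.70). Slc25a5, a carrier that exchanges ADP and ATP across the inner membrane, read 12.3, 11.6 and 12.9 CPM in SA, 7.67, 12.5 and 13.4 in IBA, 35.9, 56.2 and 32 in Ent, 60.8, 71.3 and 61.3 in ET, and 13.2 and 26.1 in LT. The Ent and ET libraries were above every SA, IBA and LT library. It rose from IBA to Ent (1.86 ± 0.29, adjusted p = 0.00327 by edgeR) and its lower level in LT did not pass (−1.71 ± 0.33, adjusted p = 0.0545). Atp5e, a subunit of ATP synthase, read 21.9, 16.8 and 14.1 CPM in SA, 19, 17.6 and 20 in IBA, 21.2, 32.2 and 26.8 in Ent, 49.2, 44.8 and 50.4 in ET, and 65.5 and 67.2 in LT. Here LT was the highest state, with both LT libraries above all 12 others, and the changes that passed were Ent to ET (0.85 ± 0.19, adjusted p = 0.00586) and IBA to LT (1.81 ± 0.21, adjusted p = 3.57e-05). Ndufaf4, an assembly factor of complex I, rose from IBA to Ent (0.97 ± 0.22, adjusted p = 0.0122) and from Ent to ET (0.94 ± 0.21, adjusted p = 0.00582). Ndufa4, a small subunit of the respiratory chain, instead fell from ET to LT, where it read 29.8, 57.4 and 35 CPM in ET against 7.71 and 13.4 in LT (−1.94 ± 0.32, adjusted p = 0.0379 by edgeR, lost in 9 of the alternatives, among them each IBA library, ET replicates 2 and 3 and LT replicate 1 left out).

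Secreted plasma proteins had 7 short units. None rose in any of the 5 pairs, and falls numbered 1 at the step into Ent, 1 at the step from Ent to ET and 4 between IBA and LT (median −1.83). Igfbp1, a liver binding protein for insulin-like growth factors (chromosome 2, 101282987 to 101291208, plus strand), read 2354, 226 and 1150 CPM in SA, 3222, 1477 and 1837 in IBA, 600.4, 371 and 1009 in Ent, 59.6, 35.5 and 160.4 in ET, and 94.6 and 54.2 in LT. SA replicate 2 was the lowest of the 9 SA, IBA and Ent libraries. Every IBA and Ent library was above every ET and LT library, and the fall passed from Ent to ET (−2.95 ± 0.76, adjusted p = 0.0125 in edgeR) and from IBA to LT (−4.87 ± 0.99, adjusted p = 0.00152). Serpina7, thyroxine-binding globulin, had its highest mean in IBA, with 100, 26.1 and 19.7 CPM in SA, 223, 98.2 and 158 in IBA, 51.2, 23.7 and 17.1 in Ent, 17.2, 11.2 and 10.8 in ET, and 13.6 and 8.1 in LT. The IBA libraries were above all Ent libraries (−2.38 ± 0.58, adjusted p = 0.0177 by edgeR), a call lost without IBA replicate 1 or without Ent replicate 2 or 3. Cfd, the complement protease factor D, was lower in LT than in IBA (−1.83 ± 0.43, adjusted p = 0.00351). HP_like, a haptoglobin unit and the third most read short unit, spanned 65.6 to 575.6 CPM with overlapping states and an adjusted p of 0.771 across the 5 states.

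Metabolic enzymes and transporters numbered 24. From SA to IBA none rose and 3 fell, from IBA to Ent 1 rose and 2 fell, from Ent to ET 1 rose and 8 fell, and from IBA to LT 1 rose and 10 fell (median −0.82). Pck1, which commits carbon to gluconeogenesis (chromosome 5, 182936327 to 182944113, minus strand), was the most read short unit, at 1124, 584 and 1414 CPM in SA, 1081, 2053 and 1482 in IBA, 2071, 1646 and 1432 in Ent, 398, 104 and 288 in ET, and 174 and 173 in LT. The 9 warm and Ent libraries were above all 5 cold ones, and the step was from Ent to ET (−2.7 ± 0.45, adjusted p = 0.00134 by edgeR). Gamt, the last enzyme of creatine synthesis, read 66.8, 55.6 and 59.8 CPM in SA, 85.3, 86.1 and 75.5 in IBA, 40.8, 46 and 33.1 in Ent, 18.4, 23.4 and 23.9 in ET, and 9.67 and 14.3 in LT. IBA, Ent and ET did not overlap in turn, and both steps passed (−1.04 ± 0.18, adjusted p = 0.00426 and −0.87 ± 0.18, adjusted p = 0.0046). NAT8B_containing, an N-acetyltransferase unit, fell from Ent to ET (−2.66 ± 0.39, adjusted p = 0.000806).

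The 3 cytochrome P450 units of this class were high in summer. CYP7A1, the rate-limiting enzyme of bile acid synthesis, read 136, 7.15 and 158 CPM in SA, 11.4, 10.2 and 13.7 in IBA, 1.98, 1.21 and 1.33 in Ent, 0.883, 0 and 0.16 in ET, and 1.06 and 0 in LT. SA replicate 2 was below the IBA libraries while the other SA libraries were far above them, so the fall from SA to IBA (−3.09 ± 0.80, adjusted p = 0.0438 by edgeR) came from groups that overlapped. IBA and LT did not overlap (−4.44 ± 1.31, adjusted p = 0.0137), a call lost without LT replicate 3. CYP8B1, which adds the hydroxyl group that makes cholic acid, read 209, 21.2 and 174 CPM in SA, 19.9, 19 and 23.6 in IBA, 30.4, 35.2 and 20.6 in Ent, 1.91, 0.982 and 2.71 in ET, and 3.33 and 2.06 in LT. Again SA replicate 2 sat within the IBA range, and the fall from Ent to ET (−3.9 ± 0.71, adjusted p = 0.0021) separated all libraries. CYP1A1_like, a detoxifying enzyme induced through the aryl hydrocarbon receptor, read 155, 9.9 and 155 CPM in SA, 0.568, 2.09 and 3.19 in IBA, 2.11, 1.81 and 0.445 in Ent, 2.06, 0 and 0.479 in ET, and 4.08 and 0.295 in LT. All 3 SA libraries were above all winter libraries, with SA replicate 2 far below the other SA libraries, and the SA to IBA change was −5.66 ± 1.07, adjusted p = 0.0095, lost without IBA replicate 1. Cytochrome P450 genes have close relatives, and reads that match several of them equally well would be missed.

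Chaperones, proteasome and ubiquitin genes numbered 9, with 3 rises between IBA and Ent, 3 between Ent and ET and 4 between IBA and LT (median 0.76), and 1 fall, from ET to LT. UBB_containing, a polyubiquitin unit, read 15.7, 19.8 and 12.9 CPM in SA, 12.5, 15.9 and 15.3 in IBA, 24, 53.2 and 47.6 in Ent, 69.8, 79.2 and 70.5 in ET, and 40.5 and 37.1 in LT. The ET libraries were the highest, Ent replicate 1 was below the other Ent libraries, and it rose from IBA to Ent (1.51 ± 0.27, adjusted p = 0.00453 by edgeR) and from Ent to ET (0.81 ± 0.25, adjusted p = 0.0284). Ube2a, a ubiquitin-conjugating enzyme, read 12.8, 14.6 and 13.4 CPM in SA, 16.5, 13.4 and 15.8 in IBA, 16.1, 15.6 and 22.4 in Ent, 32.7, 34.8 and 26.3 in ET, and 11 and 14.4 in LT. It was highest in the 3 ET libraries, rising from Ent (0.79 ± 0.20, adjusted p = 0.0102) and falling to LT (−1.29 ± 0.23, adjusted p = 0.0458). Psmb4, a proteasome subunit, rose from IBA to Ent (0.85 ± 0.24, adjusted p = 0.0299), and its later steps did not pass the test (0.58 ± 0.23, adjusted p = 0.0728 from Ent to ET and −1.24 ± 0.27, adjusted p = 0.0729 from ET to LT).

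RNA processing and transcription machinery numbered 8. From IBA to Ent 3 rose, from Ent to ET 2 rose, from ET to LT 1 fell, and from IBA to LT 3 rose and 4 fell. The class had the lowest median from ET to LT (−1.29), with 7 of 8 units under 0, though only Phf5a passed. Phf5a, a component of the splicing factor SF3B that also counts among the chromatin proteins, read 24.6, 23.9 and 27.8 CPM in SA, 24.2, 24 and 21.2 in IBA, 34.3, 35.8 and 39.7 in Ent, 44.9, 52.4 and 40.7 in ET, and 16.9 and 21.4 in LT. Its ET libraries were the highest of the 14 and its LT libraries lay below all Ent and ET libraries, with 0.66 ± 0.16, adjusted p = 0.016 from IBA to Ent and −1.26 ± 0.18, adjusted p = 0.0212 from ET to LT (edgeR). Taf7, Yrdc, Pcbp1 and Polr1d had ET to LT log2 fold changes of −1.55, −1.38, −1.32 and −1.36, with adjusted p between 0.0540 and 0.0592. Slbp, which binds the stem-loop of histone messenger RNAs, took another course, at 15.9, 21.4 and 19.4 CPM in SA, 7.39, 8.99 and 7.98 in IBA, 7.79, 10.1 and 10.8 in Ent, 39.6, 24.8 and 22.8 in ET, and 26.4 and 43.5 in LT. All cold libraries were above all others, and it fell from SA to IBA (−1.21 ± 0.27, adjusted p = 0.022, lost without SA replicate 2 or 3 or any 1 IBA library) and rose from Ent to ET (1.6 ± 0.26, adjusted p = 0.00126). SNRPB_like, a unit like the Sm protein B of spliceosomal particles, rose from IBA to Ent (0.64 ± 0.14, adjusted p = 0.0101 by edgeR). It starts 1433 nt after the Snrpb unit, whose log2 fold change there was −0.18 (adjusted p = 0.682).

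Histone and chromatin proteins numbered 7, with 3 rises from IBA to Ent, 3 rises and 3 falls from Ent to ET, 1 fall from ET to LT, and 2 rises and 1 fall from IBA to LT. Of the 7, Xist_exon1 belongs to a non-coding RNA and not to a protein gene. It was among the falls from Ent to ET (−0.612 ± 0.196, adjusted p = 0.034 by edgeR) and was the fall from IBA to LT (−0.565 ± 0.222, adjusted p = 0.0498). Hmgb3, a high mobility group protein that bends DNA (chromosome 10, 116729751 to 116736584, plus strand), had the largest rise of any short unit from IBA to LT. It read 2.41, 2.48 and 3.21 CPM in SA, 0.853, 1.67 and 3.83 in IBA, 5.28, 8.31 and 15.9 in Ent, 50.1, 52.8 and 48.4 in ET, and 44 and 33.9 in LT. All Ent libraries were above all SA and IBA libraries and all ET and LT libraries above Ent, and edgeR gave 2.09 ± 0.46, adjusted p = 0.0107 at the first step, 2.36 ± 0.38, adjusted p = 0.0012 at the next and 4.08 ± 0.47, adjusted p = 3.81e-05 over the whole span from IBA to LT. Cbx3, a heterochromatin protein, rose from Ent to ET (1.0 ± 0.21, adjusted p = 0.00418), with 25.4, 33.3 and 37.1 CPM in Ent against 67.3, 72.5 and 51.5 in ET. Both linker histone units, HIST1H1E_containing and HIST1H1C_containing, were among the falls from Ent to ET, with log2 fold changes of −2.42 and −1.52, and linker histone genes are close copies of each other.

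Zinc finger and other DNA-binding factors numbered 13, with no call from IBA to Ent, 3 rises and 3 falls from Ent to ET, 1 fall from ET to LT, and 3 rises and 4 falls from IBA to LT. Znf672 read 28.4, 36.6 and 27.9 CPM in SA, 16.2, 24.5 and 22.4 in IBA, 30.5, 36.7 and 21.9 in Ent, 55.7, 48.3 and 65.8 in ET, and 60 and 69.7 in LT. Its cold libraries were above all others (0.93 ± 0.22, adjusted p = 0.00781 from Ent to ET by edgeR). Zbtb9 read 42.7, 31.9 and 23.6 CPM in SA, 24.2, 35.7 and 27.5 in IBA, 37.6, 40.1 and 35.7 in Ent, 15.3, 17.9 and 16.9 in ET, and 6.5 and 8.98 in LT. It fell from Ent to ET (−1.18 ± 0.23, adjusted p = 0.00281) and was lower still in LT, without passing (−1.1 ± 0.27, adjusted p = 0.136). Znf281 was level in SA, IBA, Ent and ET, from 33.2 to 49.9 CPM, and read 16.2 and 18.9 CPM in LT. The ET to LT fall was −1.18 ± 0.17, adjusted p = 0.0212.

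Membrane and trafficking proteins, the largest class with 31 units, had 3 rises and 2 falls from IBA to Ent, 2 rises and 5 falls from Ent to ET, none from ET to LT, and 4 rises and 14 falls from IBA to LT. Cldn3, a tight junction protein, read 27.5, 29.4 and 30.2 CPM in SA, 38.1, 67.7 and 51.9 in IBA, 38.1, 31.4 and 16 in Ent, 8.25, 6.68 and 4.15 in ET, and 4.08 and 5.01 in LT. All cold libraries lay below all others (−2.16 ± 0.34, adjusted p = 0.00108 from Ent to ET by edgeR). Snx17, a sorting protein of endosomes, fell from Ent to ET (−0.64 ± 0.16, adjusted p = 0.0101) with a narrow spread in the warm states (57.0 to 72.1 CPM over SA and IBA). S1pr1, a sphingosine 1-phosphate receptor that marks endothelial cells, fell from IBA to Ent (−0.95 ± 0.29, adjusted p = 0.0446) and from Ent to ET (−1.1 ± 0.30, adjusted p = 0.0167). Vps29, a retromer subunit, read 22.9, 25.9 and 27.9 CPM in SA, 9.66, 8.99 and 12 in IBA, 17.8, 21.5 and 24.5 in Ent, 36.8, 46.9 and 31.1 in ET, and 12.8 and 21.5 in LT. IBA was below every other state in all libraries, and it fell from SA to IBA (−1.32 ± 0.24, adjusted p = 0.00844 by edgeR) and rose from IBA to Ent (1.05 ± 0.24, adjusted p = 0.0133) and from Ent to ET (0.85 ± 0.23, adjusted p = 0.0152).

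Among the 114 units of no class, 20 rose and 5 fell from IBA to Ent, 20 rose and 25 fell from Ent to ET, 2 fell from ET to LT, and 25 rose and 38 fell from IBA to LT. Mterf2, a mitochondrial transcription factor family member (chromosome 4, 14988314 to 14997037, plus strand), had the smallest p of all short units across the 5 states (adjusted p = 3.31e-06 by edgeR) and read 13.5, 10.4 and 14.1 CPM in SA, 10.8, 8.15 and 9.1 in IBA, 17, 24.8 and 25.1 in Ent, 59.3, 75.8 and 68.5 in ET, and 82.7 and 63.5 in LT. Ent was above IBA and the cold states above Ent in every library (1.26 ± 0.21, adjusted p = 0.00399 and 1.61 ± 0.20, adjusted p = 0.000372). Cry1, a core clock repressor, ends 3930 nt upstream on the same strand, and its log2 fold changes in edgeR's fit were −0.14 from IBA to Ent (adjusted p = 0.846), 0.94 from Ent to ET (adjusted p = 0.107) and 1.31 from IBA to LT (adjusted p = 0.0287). The part of reads from Cry1 in the result was not tested. Nr1d1 (REV-ERB alpha), a clock repressor, read 116, 29.2 and 85.9 CPM in SA, 11.9, 53.1 and 17.4 in IBA, 28.4, 49 and 58.5 in Ent, 296, 168 and 138 in ET, and 136 and 165 in LT. SA spread from 29.2 to 116 CPM, all cold libraries were above all others, and it rose from Ent to ET (2.15 ± 0.56, adjusted p = 0.0133 by edgeR, lost without Ent replicate 1 or ET replicate 1). PPP3R1_like, like the calcineurin B subunit, read 5.54, 6.05 and 5.82 CPM in SA, 6.82, 3.34 and 3.67 in IBA, 6.2, 10.3 and 12 in Ent, 53.2, 65 and 42.5 in ET, and 33.6 and 32.9 in LT. The cold libraries were at 32.9 to 65.0 CPM against 3.34 to 12.01 CPM elsewhere, and the Ent to ET change was 2.5 ± 0.28, adjusted p = 0.000272.

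Bad, which promotes cell death by binding BCL-2 family proteins, read 52.1, 55 and 48.4 CPM in SA, 32.7, 43.9 and 38.3 in IBA, 25.9, 20.3 and 6.82 in Ent, 2.36, 1.77 and 2.71 in ET, and 1.81 and 2.36 in LT. It stepped down at Ent and again at ET without overlap, by −1.12 ± 0.35, adjusted p = 0.0454 (edgeR, lost in 14 of the alternatives, each IBA, ET and LT library left out among them) and −2.93 ± 0.41, adjusted p = 0.000706. Kcnj8, a subunit of ATP-sensitive potassium channels, read 206, 33.8 and 126 CPM in SA, 198, 158 and 129 in IBA, 59.8, 53.5 and 45.1 in Ent, 13.8, 11.6 and 10.7 in ET, and 15.4 and 9.43 in LT. IBA, Ent and ET did not overlap in turn (−1.61 ± 0.45, adjusted p = 0.0299, lost without any 1 of those 6 libraries, and −2.13 ± 0.48, adjusted p = 0.00628). G0s2, an inhibitor of the lipase ATGL, read 269, 131 and 226 CPM in SA, 89, 333 and 230.1 in IBA, 594, 169 and 183 in Ent, 16.8, 67.8 and 38.5 in ET, and 12.4 and 18.4 in LT and fell from Ent to ET (−2.95 ± 0.63, adjusted p = 0.00504 by edgeR). Thrsp, tied to lipogenesis, fell likewise (−2.4 ± 0.40, adjusted p = 0.00136), with 312, 169.9 and 152 CPM in Ent against 47, 32.4 and 40.4 in ET. Both had all cold libraries below all others. Zfand2a, induced by arsenite and heat, rose from IBA to Ent (2.06 ± 0.50, adjusted p = 0.0171), with 8.81, 8.15 and 11.2 CPM in IBA against 41.9, 25.4 and 51.3 in Ent, and Nfam1 did so as well (1.83 ± 0.54, adjusted p = 0.036), though Ent replicate 1 (153 CPM) and replicate 3 (30.1 CPM) were far apart. The Zfand2a call was lost without IBA replicate 1 or 2 or Ent replicate 3, and the Nfam1 call without any 1 IBA library, without Ent replicate 1 or 2 or with season as a covariate. Colca2 read 12.5, 15.4 and 9.62 CPM in SA, 42.1, 27.4 and 35.9 in IBA, 26.4, 22.4 and 29.1 in Ent, 11.6, 15.9 and 13.6 in ET, and 9.67 and 13 in LT. IBA was above SA in every library (1.5 ± 0.24, adjusted p = 0.00409 by edgeR) and Ent above ET in every library (−0.92 ± 0.23, adjusted p = 0.0109). Fancf, of the Fanconi anaemia DNA repair complex, was higher in IBA than in SA (0.84 ± 0.23, adjusted p = 0.0486, lost in 13 of the alternatives, all of the libraries but SA replicate 1 and Ent replicate 2 left out in turn among them) and fell from IBA to Ent (−0.97 ± 0.22, adjusted p = 0.0137).

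Of the 13 units that fell from ET to LT, 5 (38.5%) were also among the 45 that rose from IBA to Ent (11.1% of those): Nme2, Phf5a, Rps23, Rps27 and Rps27a. Of all short units, 16.01% rose from IBA to Ent and 4.63% fell from ET to LT. The 2 comparisons share no library, but both come from 1 fit whose spread is estimated from all 14 libraries. Their calls are thus not independent, and the overlap was not tested. Nme2, a nucleoside diphosphate kinase, read 40.5, 48.1 and 45.8 CPM in SA, 39.8, 42.9 and 40.4 in IBA, 73.8, 74.8 and 61.8 in Ent, 66, 99.2 and 70.2 in ET, and 30.7 and 39.6 in LT. Ent and ET were above all other libraries. Its paralog NME1 ends 3558 nt upstream on the same strand and had a log2 fold change of −1.13 from IBA to Ent (adjusted p = 0.00363) and 0.36 from ET to LT (adjusted p = 0.693), where Nme2 had 0.77 ± 0.17, adjusted p = 0.012 and −1.16 ± 0.20, adjusted p = 0.0456 by edgeR. Rpp38, a protein of RNase P, stepped down at ET and again at LT instead, at 30.1, 30.5 and 33.6 CPM in SA, 41.5, 34.9 and 45.8 in IBA, 44.9, 43.5 and 34.1 in Ent, 14, 14.1 and 17.1 in ET, and 5.74 and 7.37 in LT. Its falls from Ent to ET (−1.44 ± 0.18, adjusted p = 0.000366) and from ET to LT (−1.2 ± 0.21, adjusted p = 0.0458) were both free of overlap.

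Position relative to other units was described from the coordinates. The study merged genes that overlapped after their ends were redrawn, so such genes are not among the short units. Genes without a unit cannot appear as neighbours. In 19 of the 281 short units another unit ended within 5000 nt upstream on the same strand, and these had 6 rises and 5 falls from IBA to LT (median −0.23), beside 50 rises and 100 falls in the other 262 (median −0.46). From ET to LT 2 of the 19 fell and 11 of the 262. Of all units, 24.8% rose and 25% fell from IBA to LT and 0.269% fell from ET to LT. A unit on the opposite strand overlapped 53 of the short units, which had 7 rises and 25 falls from IBA to LT and 6 falls from ET to LT. The libraries kept strand per the study, but the strand setting of the read counting is not given in the sources used here, so values of these 53 units could include reads of the partner.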

How the data were processed

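GRO-seq counts were analysed for 14 livers of 5 states. The deposited table holds read counts per transcription unit for each library. The authors trimmed reads with cutadapt, mapped them to the HiC_Itri_2 assembly with BWA, redrew gene ends with Fstitch and counted uniquely aligned reads without the first 500 nt of each gene (featureCounts is named in the submitters' processing notes, and versions are not given in the sources used here). Of those steps, the redrawn ends decide which genes are short.

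All 6324 units and 14 libraries entered 1 edgeR 4.0.16 quasi-likelihood fit (R 4.3.3, TMM, state as the only term), with Benjamini-Hochberg adjustment over all units, a limit of 0.001 for the 5 states as in the study and 0.05 for pairs. CPM and CPM per kb use TMM-scaled totals, log2 fold changes come from the fit and ± is its standard error. All are relative to the other units of a library, so a change in total transcription between states would not show. The study gives the same limit for its own library-size scaling. Filtering with edgeR's default removed 0 units. The edgeR p-values set differences between states against the spread between animals, which is estimated over all 14 libraries. For LT, with 2 libraries, that spread comes in large part from the other states. Shares of counts were compared by exact permutation tests (scipy 1.17.1). The code was tested on simulated counts.

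Members, lists, thresholds and tests were chosen with earlier results of these data known. Genes were named by rule: the largest called rises and falls without overlap in each pair (up to 5 each), the 10 with the highest density, the 3 with the smallest p per class, and those nearest the length limit. Nme2, Rpp38, Xbp1, Rps23, Rps27, Rps29, Rpl31, Taf7, Yrdc, Pcbp1, Polr1d, Tgif1, Cebpd and both linker histones were added after their values were seen. Xist_exon1, Cebpa and Dusp28 were also added in this way. Names follow the files, and 251 of the 281 matched a RefSeq gene table of assembly mIctTri1.hap1. Alternatives were DESeq2 1.42.0, other scalings and thresholds, a count minimum of 10, single-gene units only, season, a replicate block and leaving out each library. Replicate numbers were not treated as pairs: deviations of same-numbered libraries correlated at −0.263 to 0.234 over 26 pairs, with 6 over 0.1. No sequence was used here.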

Additional observations from a re-analysis of the deposited data

How the results depend on the processing

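The medians over the short units, the share and the fold changes of the genes named by rule kept their direction under the alternatives tried. Medians over single-gene units lie near 0 and did not: with library sizes from mapped reads they were 0.0955 between IBA and LT, 0.0959 between Ent and ET, 0.124 between IBA and Ent and 0.000805 between SA and IBA, where TMM gave values below 0. Across the 5 states, 96 short units became 184 with DESeq2 (50% of all units) and 211 at an adjusted p of 0.05 (62%). DESeq2 also gave 9 rises and 18 falls from SA to IBA (5.03% and 5.82% of all units) and 42 falls from ET to LT (1.52%). At an adjusted p of 0.001 in place of 0.05 the rises and falls numbered 0 and 0 from SA to IBA, 0 and 0 from IBA to Ent, 3 and 8 from Ent to ET and 17 and 39 from IBA to LT, with 0 falls from ET to LT. From Ent to ET these were 1.07% and 2.85%, beside 1.01% and 1.2% of all units. From IBA to LT they were 6.05% and 13.9%, beside 9.69% and 7.73%. At 0.05, asking for a 2-fold change as well left 2 rises and 7 falls from SA to IBA (0.712% and 2.49%, beside 1.14% and 1.83% of all units). It left 20 and 6 from IBA to Ent (7.12% and 2.14%, beside 2.13% and 2.5%). From Ent to ET 13 and 43 were left (4.63% and 15.3%, beside 2.53% and 6.44%). The numbers were 0 and 13 from ET to LT (4.63% for falls, beside 0.269%) and 34 and 82 from IBA to LT (12.1% and 29.2%, beside 10.6% and 15.1%). With season as a covariate and ET left out, 4 units fell from SA to IBA, 24 rose from IBA to Ent and 31 rose from IBA to LT, and no value for pairs with ET or for the 5 states can be had. A minimum of 10 counts in every library left 5 falls from SA to IBA. The falls from ET to LT numbered 6 with upper-quartile scaling, 24 in single-gene units alone and 2 with the replicate block. The block otherwise moved no count by over 1.5 times (67 across the 5 states, 4 and 8 from SA to IBA, 34 and 10 from IBA to Ent, 41 and 57 from Ent to ET, 51 and 98 from IBA to LT), and since the numbers do not mark pairs it is given here only; 3 of 14 libraries were nearest to one of their own number. With library sizes from mapped reads the median from Ent to ET was −0.0741. The share of counts on short units, cold minus warm, was −0.514 points with a limit of 20000 nt and −0.0950 without the 10 most read units. The causes were not tested. Leaving out 1 library at a time gave 59 to 97 units across the 5 states, 2 to 7 rises and 2 to 9 falls from SA to IBA, 16 to 52 and 2 to 15 from IBA to Ent, 29 to 44 and 49 to 73 from Ent to ET, 0 and 0 to 12 from ET to LT, and 36 to 59 and 69 to 110 from IBA to LT. Medians then ran from −0.117 to −0.0114, 0.186 to 0.338, −0.256 to −0.107, −0.471 to −0.259 and −0.564 to −0.302, and the share from −0.746 to −0.562 points. Short units held few reads, and LT had 2 libraries, so small changes in LT could not be resolved.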

Other observations

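Units under 10000 nt that the rule left out also had more falls than rises from Ent to ET and from IBA to LT. Their medians lay further below 0 than those of the 281 short units, except that of the merged units from IBA to LT. The 281 short units had medians of −0.19 and −0.38 in these comparisons. The 97 short single-gene units without a gene symbol had a median log2 fold change of −0.96 from Ent to ET and −1.24 from IBA to LT, with 8 rises and 47 falls in the former and 13 rises and 51 falls in the latter (edgeR). They had a median density of 5.02 CPM per kb, and 33 of them (34.02%) differed across the 5 states at an adjusted p at or under 0.001, beside 25.5% of all units. Merged units of several genes under the same limit numbered 150. Of these, 6 rose and 40 fell from Ent to ET and 17 rose and 47 fell from IBA to LT, with medians of −0.44 and −0.31. Of all units, 15.3% rose and 13.4% fell from Ent to ET, and 24.8% rose and 25% fell from IBA to LT. From ET to LT, 1 unit of each set fell and none rose, with medians of −0.25 and −0.13. The 281 short units had 13 falls there and a median of −0.33, and 0.269% of all units fell.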
